A study of Homo sapiens with 36 samples.

Results

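The human zinc finger genes with symbols from ZNF500 to ZNF799 were chosen by name alone: a gene counted when its current symbol was exactly ZNF followed by a number in that range. The arrays measured 203 such genes, among 22260 genes in all. RefSeq lists 207 symbols in the range, and ZNF608, ZNF679, ZNF722 and ZNF723 are not analysed here. Of the 203 genes 202 are protein coding and 1, ZNF781, is a transcribed pseudogene. ZNF724 carried the older name ZNF724P on the array. Each gene was represented by its brightest probe set, a group of probes against 1 stretch of transcript, and the genes had a median of 6 probe sets.

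The expression arrays came from the prostate carcinoma line DU145 and from CCRF-CEM, grown from a T-cell acute lymphoblastic leukaemia, both human. Parent cells proficient for SLFN11 and cells labelled as its knockout were used of either line. Both were measured with treatment none and after 6 h or 12 h in 250 nM camptothecin, which locks topoisomerase I to the DNA strand it has cut and so stalls both replication and transcription. The 12 groups held 3 arrays each, 36 in all. The treatment protocol also names DMSO, but the labels do not say whether the cells with treatment none received it or when they were harvested. Nor do they say whether a knockout group was a clone or a pool, or whether the 3 arrays of a group came from separate cultures, so p-values measure the spread between these arrays only. In each line a comparison of the genotypes therefore rests on a single knockout group.

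C2H2 zinc finger proteins bind DNA through strings of short domains, each held in shape by a zinc ion between pairs of cysteines and histidines. Many of those with numbered ZNF symbols also carry a KRAB domain, which recruits the corepressor TRIM28 and through it the histone methyltransferase SETDB1 to silence transposable elements and other targets. KRAB genes arose by repeated tandem duplication and lie in clusters, the largest of them on human chromosome 19, where neighbours have similar sequences. The symbol rule does not check for either domain, so the 203 genes also hold members without KRAB, such as ZNF609, ZNF503, ZNF521, ZNF687 and ZNF711. Probe sets of such close relatives can take up each other's transcripts, and how far they did so was not tested.

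In both lines 3 of the 11 SLFN11 probe sets were lower in every untreated knockout array than in every untreated parent array, while the brightest was higher by a mean of 0.41 in DU145 and 0.34 in CCRF-CEM on the log2 scale. The 5 epithelial markers were higher in every DU145 array than in every CCRF-CEM array, and the 6 T-lineage markers the reverse. KRT18, a keratin of simple epithelia, was at 11.51 to 12.05 in DU145 and 6.68 to 8.12 in CCRF-CEM, and CD3E, a chain of the T-cell receptor complex, at 5.75 to 7.29 and 11.73 to 12.07. The fibroblast collagen gene COL1A1 was bright in both, at 10.91 to 12.07 and 10.48 to 11.71. Arrays of a group correlated at 0.979 to 0.988 across genes, and no pair was identical. In these bulk samples fewer cells of a type and less RNA per cell cannot be told apart.

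The promoters of 4 of the genes are shown because the results below turn on them. ZNF583 rose and ZNF609 fell in every camptothecin group. ZNF726 and ZNF675 had the largest increases that passed in DU145 and in CCRF-CEM. These 2 lie 3 steps apart on chromosome 19 in the order of measured protein-coding genes. The sequences are RefSeq's, on build GRCh38.p14, and run 5′ to 3′ from 250 bases before to 50 after the gene's start. ZNF583 is at chr19:56403764-56404063 on the plus strand, ZNF726 at chr19:23914636-23914935 on the plus strand, ZNF675 at chr19:23687163-23687462 on the minus strand and ZNF609 at chr15:64460328-64460627 on the plus strand. Capitals mark, on either strand, CCAAT, the letters bound by NF-Y, GGGCGG, those of the box bound by SP1, and TATAAA, those of the core promoter box bound by TBP.
ZNF583: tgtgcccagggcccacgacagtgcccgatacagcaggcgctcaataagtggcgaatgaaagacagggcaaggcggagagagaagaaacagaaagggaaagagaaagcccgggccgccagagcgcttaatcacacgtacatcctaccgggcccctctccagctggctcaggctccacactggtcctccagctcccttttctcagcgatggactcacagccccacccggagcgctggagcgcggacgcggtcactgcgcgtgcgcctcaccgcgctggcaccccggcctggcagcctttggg
ZNF726: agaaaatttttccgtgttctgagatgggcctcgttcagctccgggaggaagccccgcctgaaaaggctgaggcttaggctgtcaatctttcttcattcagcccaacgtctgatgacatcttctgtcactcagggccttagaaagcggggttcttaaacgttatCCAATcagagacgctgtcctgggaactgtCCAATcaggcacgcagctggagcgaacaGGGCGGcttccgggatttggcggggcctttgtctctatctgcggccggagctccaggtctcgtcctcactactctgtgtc
ZNF675: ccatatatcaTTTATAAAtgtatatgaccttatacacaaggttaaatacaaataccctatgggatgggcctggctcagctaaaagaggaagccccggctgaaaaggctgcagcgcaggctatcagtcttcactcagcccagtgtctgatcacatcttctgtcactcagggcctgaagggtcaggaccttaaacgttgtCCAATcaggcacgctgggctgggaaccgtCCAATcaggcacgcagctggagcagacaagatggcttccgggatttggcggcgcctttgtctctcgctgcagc
ZNF609: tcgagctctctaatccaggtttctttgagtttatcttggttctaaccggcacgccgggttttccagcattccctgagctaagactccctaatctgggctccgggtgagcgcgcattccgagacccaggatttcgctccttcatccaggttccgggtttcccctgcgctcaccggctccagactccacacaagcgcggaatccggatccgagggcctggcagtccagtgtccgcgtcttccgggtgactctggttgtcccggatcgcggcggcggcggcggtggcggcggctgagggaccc
ZNF726 held 2 CCAAT and 1 GGGCGG, and ZNF675 held 2 CCAAT and 2 overlapping TATAAA matches, 1 on each strand. These TATAAA matches lie near the 5′ end of the window, far from the gene's start. Both hold the same run of 25 bases, gtCCAATcaggcacgcagctggagc, around a CCAAT. None of the searched letters stood in the windows of ZNF583 and ZNF609.

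RefSeq windows of the same kind could be matched to 168 of the 203 genes. GGGCGG stood in 66.7% of them against 44.6% of all 27305 promoters, and CCAAT in 47.6% against 35.7%. TATAAA stood in 3.6% against 12.0%, TGACTCA, the AP-1 letters, in 1.8% against 4.9%, TGACGTCA, the CRE letters, in 4.2% against 2.0%, and CACGTG, the E-box letters, in 5.4% against 7.4%. The other numbered ZNF genes were close to the same shares, with GGGCGG in 65.3% and CCAAT in 48.2% of 222 promoters. Among the 59 matched genes that rose in CCRF-CEM parent cells at 12 h GGGCGG stood in 66.1% and CCAAT in 50.8%, and among the 109 that did not in 67.0% and 45.9%. In the same order TATAAA stood in 6.8% and 1.8%, TGACGTCA in 6.8% and 2.8%, TGACTCA in 1.7% and 1.8% and CACGTG in 1.7% and 7.3%. No test of these shares was made. The median promoter of the 168 had 61.7% G or C and 22 CpG pairs, that of all genes 58.3% and 14. These matches describe letters and are not evidence of binding.

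Signals were log2 values in which a difference of 1 is a doubling. In untreated parent cells the 203 genes had a median of 6.52 in DU145, below the 7.06 of all genes, and of 7.08 in CCRF-CEM, where all genes were at 6.96. The median SD over the 3 arrays was 0.26 and 0.20. The brightest on average over the 36 arrays were ZNF664 at 11.97, ZNF706 at 10.32, ZNF580 at 10.30, ZNF652, a repressor that works with CBFA2T3, at 10.27 and ZNF638, which helps to silence unintegrated retroviral DNA, at 10.10. ZNF676, ZNF732 and ZNF735 had means below 3.04, the highest lower quartile of an array, in all 12 groups, and ZNF727, ZNF737, ZNF761 and ZNF763 did so in 2 to 4 groups. The genes were not filtered on level, and where a mean is that low the change has no reliable size. Since probes differ in brightness, the order of these levels is an order of signals and not of transcript numbers.

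The lines differed widely before treatment, as a description without a test. In untreated parent cells 84 of the 203 genes were higher in all 3 CCRF-CEM arrays than in all 3 DU145 arrays, and 31 were higher in DU145; over all genes the shares were 23% and 22.5%. ZNF711, whose protein works with the histone demethylase PHF8, was at 9.68 ± 0.18 (SD, n = 3) in CCRF-CEM and 4.79 ± 1.39 in DU145. ZNF521, a cofactor of early blood cell progenitors, was at 8.87 ± 0.19 and 5.60 ± 0.87. ZNF726 was at 7.58 ± 0.10 in CCRF-CEM and 5.03 ± 0.22 in DU145. ZNF560 ran the other way, at 4.23 ± 1.28 in CCRF-CEM and 8.41 ± 0.08 in DU145. ZNF774 was also higher in DU145, at 7.56 ± 0.42 against 5.64 ± 0.22.

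Across the 8 comparisons of camptothecin with treatment none, 93 of the 203 genes rose in at least 1 and 10 fell in at least 1. ZNF638 and ZNF654 are in both counts, since they fell in DU145 and rose in CCRF-CEM parent cells, and 102 genes passed in none. Such counts over the 8 comparisons were not made for all genes, so they do not by themselves set the family apart. To pass, a gene needed an adjusted p under 0.05 from limma with Benjamini-Hochberg adjustment over all 22260 genes. The comparisons at 6 h and at 12 h use the same control arrays and are not independent. Leaving out each array of a comparison in turn is called a leave-out below. Increases outnumbered decreases among the members that passed in each of the 8. Over all genes they did so too, except in DU145 parent cells at 12 h, with 846 increases and 865 decreases. With arrays at equal housekeeping medians, member decreases outnumbered increases in DU145 parent cells at 12 h and CCRF-CEM knockout cells at 6 h.

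**Figure D1:**
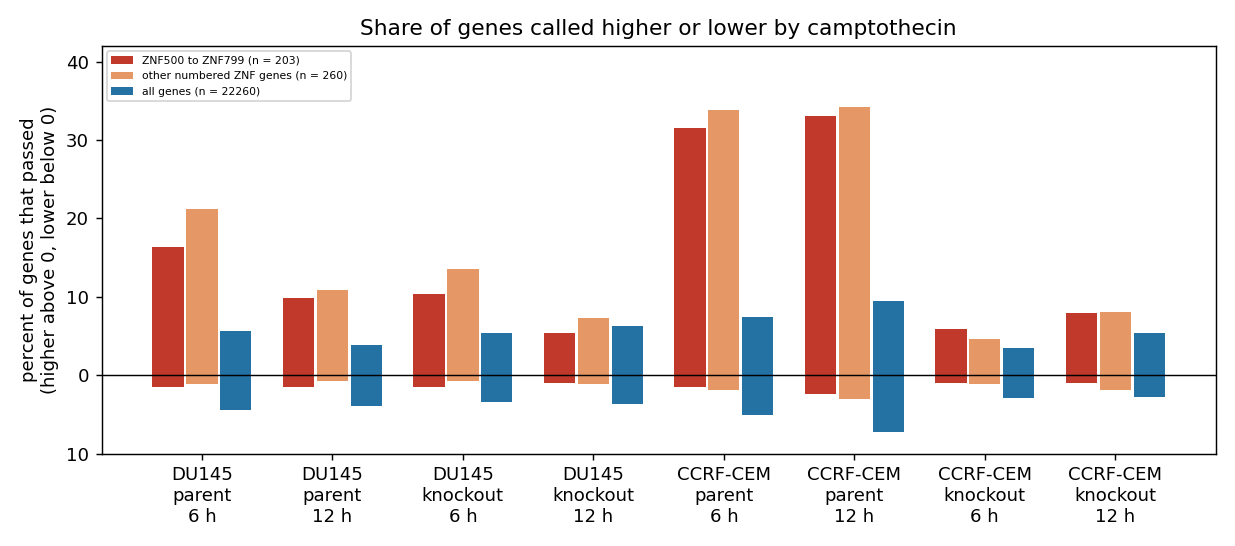
Percent of genes that passed (adjusted p below 0.05) in each comparison of camptothecin with treatment none, with those that rose drawn above 0 and those that fell below 0, for the 203 genes, the 260 other numbered ZNF genes and all 22260 genes. The red bars above 0 are tallest in CCRF-CEM parent cells, at 31.5% and 33%, where the other numbered ZNF genes reach 33.8% and 34.2% and all genes 7.36% and 9.51%.

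CCRF-CEM parent cells had the most members that rose among the groups, while most of the family did not pass. At 6 h 64 of the 203 genes (31.5%) rose and 3 fell, against 7.36% higher and 5.06% lower over all genes. At 12 h 67 (33%) rose and 5 fell, against 9.51% and 7.3%. The median change of the 203 genes was 0.31 at 6 h and 0.34 at 12 h, where the medians of all genes were -0.02 and 0.001. The genes that rose did so by 0.40 to 2.11 at 6 h (median 0.81) and by 0.34 to 2.28 at 12 h (median 0.83). At 12 h 21 of the 203 passed with at least a doubling, as did 21 of the 260 other numbered ZNF genes and 402 of all 22260. Those that rose at 12 h had a median control level of 7.62, and those that did not pass one of 6.94. The 260 other numbered ZNF genes showed like shares, 33.8% and 34.2% higher.

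ZNF675, a KRAB zinc finger protein that binds the signalling adaptor TRAF6, had the largest increases that passed. Its signals were 4.80, 6.25 and 6.00 in the control arrays, 7.94, 7.46 and 7.98 at 6 h and 8.04, 8.02 and 7.83 at 12 h. All 6 treated arrays lay above all 3 controls, with changes of 2.11 ± 0.47 (SE; adjusted p = 0.00783) and 2.28 ± 0.47 (adjusted p = 0.00332). Its 4 probe sets all rose on average. The knockout controls spread from 5.35 to 7.29 and the knockout changes were 0.50 ± 0.47 and 0.40 ± 0.47 (adjusted p = 0.62 and 0.68).

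ZNF615, a KRAB gene of chromosome 19, went from 6.28, 7.52 and 6.78 to 8.25, 8.65 and 8.48 at 6 h and 8.46, 8.66 and 8.56 at 12 h. No treated array overlapped a control, and the changes were 1.60 ± 0.25 (adjusted p = 0.000648) and 1.70 ± 0.25 (adjusted p = 0.000265). ZNF773, another KRAB gene, was at 7.17, 6.87 and 7.02 in the controls, at 8.37, 8.34 and 8.18 at 6 h and at 8.31, 8.32 and 8.26 at 12 h, a change of 1.28 ± 0.15 at both times (adjusted p = 4.52e-05 and 3e-05). ZNF525 rose by 1.32 ± 0.26 and ZNF570 by 1.31 ± 0.34 at 6 h, the latter lost without control 1 or treated 2 or 3. ZNF641 rose by 1.34 ± 0.15 and ZNF555 by 1.30 ± 0.25 at 12 h, the latter not with the mean of its probe sets (0.53, adjusted p = 0.151). ZNF622, whose protein acts in the maturation of the large ribosomal subunit and is no DNA-binding repressor, was among the genes that rose, by 0.72 ± 0.12 at 6 h (adjusted p = 0.000997).

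Among the members that passed, ZNF774 had the largest step from 6 h to 12 h in CCRF-CEM parent cells. It was at 5.41, 5.67 and 5.85 in the parent controls, 6.54, 6.70 and 6.61 at 6 h and 7.42, 7.85 and 7.38 at 12 h. The 3 groups were fully apart, with 0.98 ± 0.14 at 6 h (adjusted p = 0.000299) and 1.91 ± 0.14 at 12 h (adjusted p = 4.65e-07). The step from 6 h to 12 h was 0.93 ± 0.14 (adjusted p = 0.00325) in the brightest probe set. Averaged over its probe sets the step was 0.09 (adjusted p = 0.803), so that call ended, and the change at 12 h was 0.53 (adjusted p = 0.0111).

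Few members fell in CCRF-CEM parent cells. ZNF503, a repressor of the NLZ family, was at 9.68, 9.45 and 9.61 in the controls, at 8.79, 8.56 and 8.46 at 6 h and at 8.69, 8.70 and 8.15 at 12 h. It fell by 0.98 ± 0.19 and 1.07 ± 0.19 (adjusted p = 0.00282 and 0.00097), but only 2 of its 7 probe sets fell at 6 h and their median change was 0.13. ZNF521 fell by 0.75 ± 0.18 at 6 h (adjusted p = 0.0123) and by 0.56 ± 0.18 at 12 h (adjusted p = 0.0446), and all 10 of its probe sets fell at 6 h. ZNF512 was at 10.16, 10.17 and 10.27 in the controls and 10.29, 10.11 and 10.49 at 6 h, and dropped to 9.60, 9.16 and 9.36 at 12 h. It fell at 12 h by 0.82 ± 0.13 (adjusted p = 0.000314), with all 21 probe sets lower, and the drop from 6 h to 12 h was 0.92 ± 0.13 (adjusted p = 0.00187). ZNF706 fell by 0.39 ± 0.10 at 12 h (adjusted p = 0.0122). The call for ZNF521 was lost without control array 2 or treated array 1 at 6 h and passed in 1 of 6 leave-outs at 12 h, and that for ZNF706 was lost without treated array 2. With the mean of the probe sets ZNF503 was at 0.08 and -0.20 (adjusted p = 0.776 and 0.345) and ZNF706 at -0.10 (adjusted p = 0.601), and with all arrays in 1 fit ZNF521 had adjusted p of 0.209 and 0.368.

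**Figure D2:**
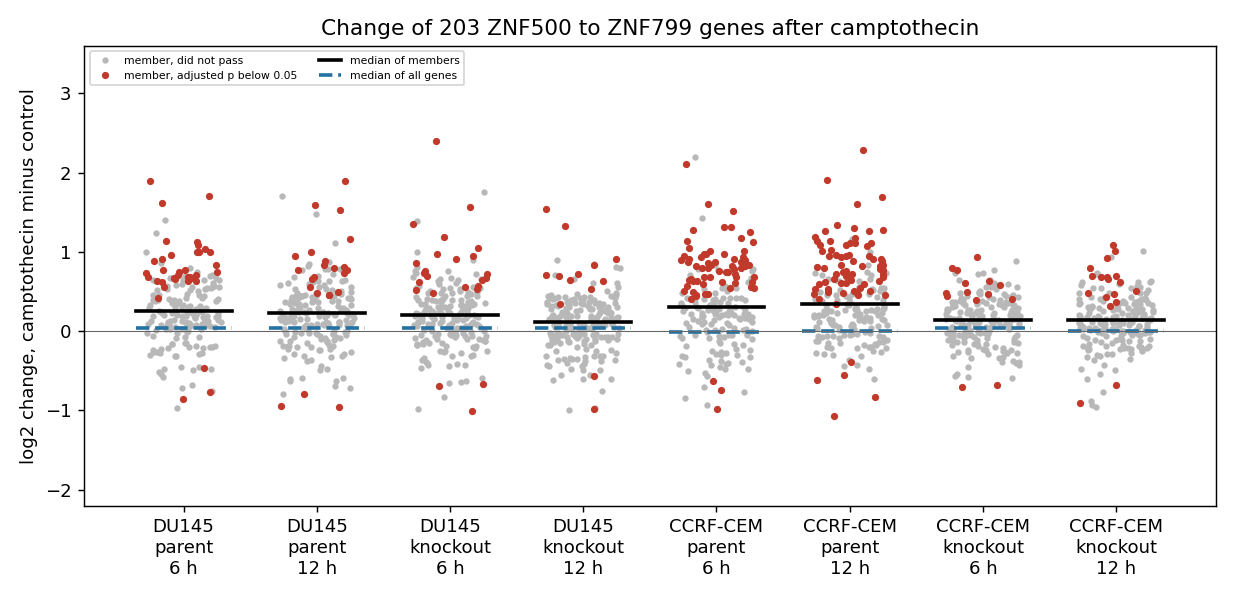
Log2 change of each of the 203 genes (points, camptothecin minus treatment none) in the 8 comparisons, red where the adjusted p was below 0.05. The black bar is the median of the 203 genes and the dashed blue bar that of all genes; in CCRF-CEM parent cells the medians are 0.31 and -0.02 at 6 h and 0.34 and 0.001 at 12 h.

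In CCRF-CEM knockout cells far fewer members passed. At 6 h 12 (5.91%) rose and 2 fell, against 3.52% and 2.92% of all genes. At 12 h 16 (7.88%) rose and 2 fell, against 5.4% and 2.81%. The medians were 0.15 and 0.14, those of all genes 0.04 and 0.003. The genes that rose did so by 0.40 to 0.94 at 6 h and by 0.32 to 1.09 at 12 h. With the arrays set to equal housekeeping medians the median of all genes was -0.20 at 6 h and that of the members -0.09. There 0 rose while 4 fell. That scaling moves all genes of an array alike, so it cannot change the members' median minus that of all genes, 0.11. At 12 h 4 rose and 2 fell with that scaling. The count at 6 h was 6 to 8 when any 1 of the 6 arrays was left out (6 without control 1 or treated 3, 7 without treated 2, and 8 without controls 2 or 3 or treated 1), and that at 12 h was 9 without control 1 or treated 2 and 11 without treated 3.

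ZNF707 rose most at 12 h in the knockout, from 7.10, 6.71 and 7.14 to 8.41, 7.89 and 7.91, by 1.09 ± 0.16 (adjusted p = 0.00118), though 8 of its 16 probe sets rose and their median was 0.08. ZNF700 went from 7.24, 7.08 and 6.91 to 8.02, 8.19 and 8.03, by 1.01 ± 0.20 (adjusted p = 0.00695), while 1 of its 3 probe sets rose and their median was -0.29. Neither call held with the mean of the probe sets, at 0.10 for ZNF707 (adjusted p = 0.658) and 0.04 for ZNF700 (adjusted p = 0.95). ZNF774 was at 7.74, 7.70 and 7.63 in the knockout controls, at a mean of 8.13 ± 0.14 (SD, n = 3) at 6 h and at 8.52, 8.78 and 8.52 at 12 h, where it rose by 0.92 ± 0.14 (adjusted p = 0.00145). ZNF672 rose by 0.94 ± 0.26 at 6 h, a call that was lost whenever any 1 array was left out. ZNF503 fell by 0.90 ± 0.19 at 12 h (adjusted p = 0.0091), but was at -0.08 with the mean of its probe sets (adjusted p = 0.776).

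The genotype difference asks whether the change in parent cells differed from that in knockout cells. At 12 h in CCRF-CEM it passed for 21 members. For 19 (9.36%) the change was more positive in parent cells and for 2 more negative, against 3.63% and 4.28% of all genes. Its median over the 203 genes was 0.22, against 0.01 over all genes. At 6 h it passed for 6 (2.96%), all more positive in parent cells, against 2.23% of all genes (1.54% more positive). Of the 260 other numbered ZNF genes 8.46% passed, all more positive. The count of 6 fell to 1 without parent control 1, parent treated 2 or knockout treated 2. It fell to 2 without parent treated 3 or knockout control 2, and to 3 without parent control 2, parent treated 1 or knockout treated 3. The difference and the untreated comparison share control arrays.

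ZNF687 and ZNF592 are partners of the chromatin reader ZMYND8 and of ZNF532. ZNF687 in parent cells was at 8.68, 8.44 and 8.55 in the controls and 9.71, 9.42 and 9.39 at 12 h, and in knockout cells at 8.77, 8.69 and 8.51 and then 8.60, 8.34 and 8.32. The parent arrays at 12 h lay above all others, with a change of 0.95 ± 0.14 (adjusted p = 0.000276) against -0.24 ± 0.14 in the knockout, a difference of 1.19 ± 0.20 (adjusted p = 0.0025). ZNF592, named here after its values were seen, had 0.61 ± 0.11 in parent and -0.05 ± 0.11 in knockout cells, a difference of 0.66 ± 0.16 (adjusted p = 0.0196). For ZNF532 the difference was 0.56 ± 0.37 (adjusted p = 0.437).

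ZNF726 in CCRF-CEM parent cells was at 7.65, 7.61 and 7.47 in the controls, 8.57, 8.51 and 8.25 at 6 h and 9.06, 8.85 and 8.61 at 12 h. In the knockout its arrays overlapped throughout, at 7.63, 7.88 and 7.21, then 7.52, 7.53 and 7.87, then 7.65, 7.83 and 7.33. The difference at 12 h was 1.23 ± 0.26 (adjusted p = 0.00902). ZNF681, the KRAB gene between ZNF675 and ZNF726, was at 8.51, 8.82 and 9.09 in parent controls and 9.87, 10.13 and 9.98 at 12 h, against 9.25, 8.98 and 9.36 and 9.10, 9.52 and 8.97 in the knockout, a difference of 1.19 ± 0.25 (adjusted p = 0.00887). ZNF641 reached 8.02, 8.04 and 8.23 in parent cells from 7.06, 6.49 and 6.74, and 7.14, 7.22 and 6.89 in the knockout from 7.08, 7.01 and 6.82, a difference of 1.22 ± 0.22 (adjusted p = 0.00351). The calls of ZNF687, ZNF681, ZNF726 and ZNF641 passed in all 12 leave-outs. Averaged over probe sets, those of ZNF726 (0.34, adjusted p = 0.229) and ZNF641 (0.37, adjusted p = 0.159) ended. ZNF615 differed by 1.22 ± 0.36 (adjusted p = 0.0498), but in 1 of 12 leave-outs only, and ZNF547 by 1.09 ± 0.31 (adjusted p = 0.0423), in 2 of 12. ZNF700, at -1.20 ± 0.28, was at -0.37 with the mean of its probe sets (adjusted p = 0.625).

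**Figure D3:**
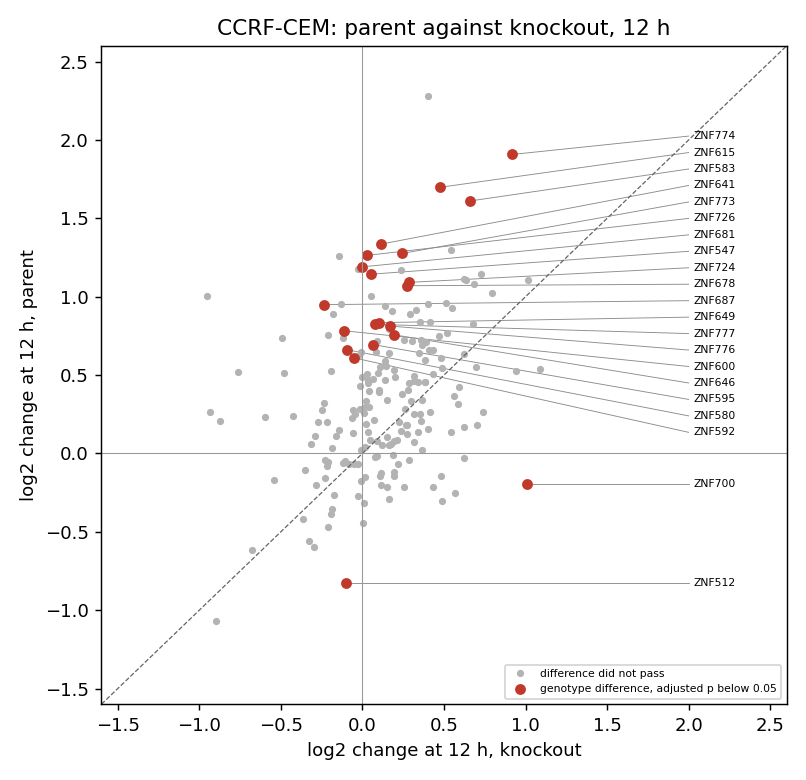
Log2 change at 12 h of the 203 genes in CCRF-CEM knockout cells (horizontal) and parent cells (vertical), with the 21 genes whose genotype difference passed in red and named. Most of these lie above the dashed line of equal change, and ZNF700 and ZNF512 lie below it.

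At 6 h ZNF595, a KRAB gene, passed in all 12 leave-outs but not with the mean of its probe sets (0.44, adjusted p = 0.185). ZNF773, at 0.88 ± 0.21 (adjusted p = 0.0397), passed in 0 of 12 leave-outs but under all 7 other alternatives. The ZNF595 parent arrays went from 9.56, 9.83 and 9.60 to 10.40, 10.44 and 10.62, and the knockout arrays were at 9.07, 9.26 and 9.11 and then 8.97, 9.00 and 9.24. This difference was 0.90 ± 0.16 (adjusted p = 0.00981). ZNF670 differed by 1.32 ± 0.27 (adjusted p = 0.0203). Its parent controls of 5.67, 6.15 and 5.40 were below the knockout controls, at a mean of 6.78 ± 0.20 (SD, n = 3), and the parent arrays at 6 h, 6.69, 7.32 and 6.95, reached the range of the untreated knockout; the call was lost without parent control 1, parent treated 2, knockout control 2 or knockout treated 2, and with the mean of the probe sets (0.35, adjusted p = 0.498).

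In untreated CCRF-CEM cells 3 of the 203 genes (1.48%) differed between knockout and parent, a share near the 1.51% of all genes. ZNF774 was higher in the knockout by 2.05 ± 0.14 (adjusted p = 1.55e-06), or 0.91 with the mean of its 12 probe sets (adjusted p = 0.000603), of which 11 were higher, so the treated parent arrays at 12 h came near the untreated knockout arrays given above. ZNF670 was higher by 1.04 ± 0.19 (adjusted p = 0.0109), and ZNF595 was lower by 0.52 ± 0.11 in the knockout (adjusted p = 0.0341). The call of ZNF670 was lost without parent control 1 or 3 or knockout control 2, and that of ZNF595 without any 1 of the 6 arrays. Both ended with the mean of the probe sets, at 0.53 (adjusted p = 0.107) and -0.14 (adjusted p = 0.7).

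In DU145 parent cells the family also shifted upwards, with fewer calls than in CCRF-CEM. At 6 h 33 of the 203 genes (16.3%) rose and 3 fell, against 5.67% and 4.42% of all genes. At 12 h 20 (9.85%) rose and 3 fell, against 3.8% and 3.89%. The medians were 0.25 and 0.23, those of all genes 0.04 and 0.04. With equal housekeeping medians the median of all genes was -0.19 at 6 h and -0.21 at 12 h. The members' medians were then 0.02 and -0.02, and at 12 h 7 rose and 8 fell. That scaling moves all genes of an array alike, so it cannot change the members' medians minus those of all genes, 0.21 and 0.19. With cyclic loess the members' medians were 0.18 and 0.16 above those of all genes, and at 12 h 10 rose and 3 fell. The 12 h count of 23 was 15 without control 1 or 2, 13 without treated 1 and 12 without treated 2.

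The largest increase at 6 h was that of ZNF726, from 4.80, 5.24 and 5.04 to 6.69, 6.83 and 7.26, with 6.78, 6.45 and 6.63 at 12 h. No array overlapped, and it rose by 1.90 ± 0.21 (adjusted p = 4.16e-05) and 1.59 ± 0.21 (adjusted p = 0.000256). ZNF670 was at 4.94, 5.40 and 5.46 in the controls, 6.83, 7.23 and 6.88 at 6 h and 6.74, 7.10 and 6.54 at 12 h, and rose by 1.71 ± 0.39 (adjusted p = 0.0112) and 1.52 ± 0.39 (adjusted p = 0.0266, in 1 of 6 leave-outs). ZNF749 rose by 1.14 ± 0.24, ZNF778 by 1.13 ± 0.21 and ZNF527 by 1.09 ± 0.25 at 6 h. ZNF766 rose by 1.16 ± 0.21, ZNF724 by 1.00 ± 0.24 and ZNF619 by 0.94 ± 0.27 at 12 h. ZNF527 was lost without control 1 or treated 1, ZNF724 without control 2 or treated 1 or 2, and ZNF619 passed in 1 of 6 leave-outs. ZNF605 fell by 0.76 ± 0.20 at 6 h and 0.79 ± 0.20 at 12 h, and ZNF638, bright at 10.13, 10.29 and 10.22 in the controls, went to 9.76, 9.81 and 9.68 at 6 h, by -0.47 ± 0.11 (adjusted p = 0.0131), a call lost without control 2 or treated 3. ZNF605 passed in 2 of 6 leave-outs at each time. Averaged over probe sets, ZNF638 was at -0.16 (adjusted p = 0.291) and ZNF605 at -0.31 and -0.26 (adjusted p = 0.133 and 0.238).

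DU145 knockout cells gave 21 members that rose (10.3%) and 3 that fell at 6 h, against 5.32% and 3.39% of all genes. At 12 h 11 (5.42%) rose and 2 fell, against 6.31% and 3.72%, a share near that of all genes. The medians were 0.20 and 0.12, with 0.04 over all genes at both times. The count at 6 h was 15 without treated array 1, and the 13 at 12 h became 7 without treated array 1 or 2. With cyclic loess 5 rose and 3 fell at 12 h.

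ZNF726 again led, from 3.54, 3.50 and 3.83 to 6.43, 5.84 and 5.81 at 6 h and 5.32, 4.78 and 5.40 at 12 h. It rose by 2.40 ± 0.21 (adjusted p = 1.83e-05) and 1.55 ± 0.21 (adjusted p = 0.000405), but at 12 h only the brightest of its 4 probe sets was higher and their median was -0.23, and with the mean of the probe sets it was at 0.14 (adjusted p = 0.504). ZNF584 was at 5.17, 5.49 and 5.46, then 6.99, 6.39 and 6.78, then 6.76, 6.75 and 6.58, and rose by 1.35 ± 0.19 (adjusted p = 0.000658) and 1.32 ± 0.19 (adjusted p = 0.000576). ZNF606 rose by 1.56 ± 0.31, ZNF774 by 1.19 ± 0.22 and ZNF600 by 1.04 ± 0.20 at 6 h, where the means of the probe sets gave 0.33 for ZNF606 (adjusted p = 0.0983) and 0.67 for ZNF600 (adjusted p = 0.0621). ZNF644, a partner of the histone methyltransferases G9a and GLP, fell by 0.66 ± 0.14 at 6 h (adjusted p = 0.0101) and by 0.57 ± 0.14 at 12 h (adjusted p = 0.0208). At 6 h ZNF654 fell by 0.69 ± 0.17 (adjusted p = 0.0174), a call lost without control 3 or treated 1 or 3. ZNF644 at 12 h passed in 2 of 6 leave-outs, and at 6 h it was at -0.30 with the mean of its probe sets (adjusted p = 0.103).

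The genotype difference in DU145 passed for 0 members at 6 h in limma, where 27 had an unadjusted p below 0.05, against 1.11% of all genes. At 12 h it passed for 4 (1.97%), against 1.13%, and without any 1 of the 12 arrays used it passed for 0 to 2. ZNF549 was at 5.20, 5.07 and 5.04 in parent controls and 5.97, 5.94 and 6.05 at 12 h, and in the knockout at 5.49, 5.40 and 5.44 and then 5.39, 4.82 and 5.39, a difference of 1.13 ± 0.20 (adjusted p = 0.0225). It passed in 10 of 12 leave-outs, all but those of parent control 2 and parent treated 3. ZNF583 and ZNF783 differed by 1.21 ± 0.26 and 1.15 ± 0.25 and ZNF599 by -1.50 ± 0.34. None of these 4 passed with the mean of the probe sets (adjusted p from 0.314 to 0.836). With equal housekeeping medians the median of all genes was -0.32 at 6 h and -0.29 at 12 h. Then 8 differences passed at 6 h, all negative, and at 12 h 1 was positive and 8 negative. That scaling moves all genes of an array alike, so it cannot change the members' medians minus those of all genes, 0.09 and 0.11.

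Before treatment 18 of the 203 genes (8.87%) differed between DU145 knockout and parent cells, 8 higher and 10 lower, against 11.4% of all genes. ZNF711 was at 3.20, 5.44 and 5.73 in parent and 6.48, 7.47 and 7.68 in knockout controls, higher by 2.42 ± 0.51 (adjusted p = 0.00794). Of its 14 probe sets 13 were higher, with a median difference of 0.97. ZNF584 was lower by 1.11 ± 0.19 in the knockout (log2 change -1.11, adjusted p = 0.00219), where it later rose to 6.99, 6.39 and 6.78, the range of the untreated parent being 6.27 to 6.67. ZNF726 changed by -1.41 ± 0.21 in its brightest probe set, while the mean of its probe sets gave 0.08. With cyclic loess 27.3% of the genes that passed were higher, against 44.4% here.

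ZNF583, ZNF614, ZNF770 and ZNF609 moved the same way in parent and knockout cells of both lines at 6 h, and ZNF583 and ZNF609 did so at 12 h. ZNF583, a KRAB gene, rose most steadily. Its DU145 parent arrays were at 4.50, 4.91 and 5.31, then 6.39, 6.68 and 6.52 at 6 h and 6.76, 6.77 and 6.89 at 12 h. Its DU145 knockout arrays were at 5.48, 5.61 and 5.66, then 5.97, 6.40 and 6.49, then 6.13, 6.16 and 6.54. In CCRF-CEM the parent arrays were at 6.51, 6.61 and 6.60, then 8.09, 8.12 and 8.07, then 8.30, 8.29 and 7.97, and the knockout arrays at 6.14, 6.64 and 6.28, then 7.41, 7.14 and 6.89, then 6.75, 7.14 and 7.15. Every treated array lay above every control of its group. The changes at 6 h were 1.62 ± 0.19 and 0.70 ± 0.19 in DU145 parent and knockout cells and 1.52 ± 0.16 and 0.79 ± 0.16 in CCRF-CEM, and at 12 h 1.90 ± 0.19, 0.69 ± 0.19, 1.61 ± 0.16 and 0.66 ± 0.16. The parent cells' change exceeded that of the knockout at 12 h by 0.95 ± 0.22 in CCRF-CEM (adjusted p = 0.0184) and by 1.21 ± 0.26 in DU145 (adjusted p = 0.0443, in 2 of 12 leave-outs). In CCRF-CEM knockout cells at 6 h the mean of the probe sets gave 0.41 (adjusted p = 0.0544) and equal housekeeping medians 0.56 (adjusted p = 0.103). In DU145 at 6 h 3 of its 6 probe sets rose and at 12 h all 6 did.

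ZNF614, also a KRAB gene, rose at 6 h by 0.62 ± 0.15 and 0.76 ± 0.15 in DU145 parent and knockout cells and by 0.68 ± 0.12 and 0.49 ± 0.12 in CCRF-CEM. ZNF770 rose by 0.42 ± 0.11, 0.62 ± 0.11, 0.64 ± 0.11 and 0.40 ± 0.11 in the same order. These sizes are below a doubling, and the genotype difference of neither gene passed at 6 h or 12 h.

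ZNF609 was the only member that fell in all 8 comparisons, by its brightest probe set. With the mean of its 15 probe sets the 4 DU145 calls held and the 4 CCRF-CEM calls ended, at -0.08 and -0.14 in parent cells (adjusted p = 0.763 and 0.472) and -0.35 and -0.27 in knockout cells (adjusted p = 0.0677 and 0.164). Its mouse counterpart works with the cohesin loader NIPBL and the Integrator complex, and in human cells the gene also yields a circular RNA. DU145 parent arrays were at 8.89, 8.93 and 8.59, then 7.71, 8.30 and 7.84 at 6 h and 7.82, 8.28 and 7.44 at 12 h, and knockout arrays at 8.98, 8.71 and 8.64, then 7.92, 7.76 and 7.62, then 7.89, 7.79 and 7.72. In CCRF-CEM the parent arrays were at 8.56, 8.82 and 8.91, then 7.93, 8.29 and 8.19, then 8.34, 8.16 and 7.96, and the knockout arrays at 8.44, 8.57 and 8.15, then 7.64, 7.84 and 7.60, then 7.95, 7.77 and 7.41. No treated array reached a control of its group. The log2 changes ran from -0.85 to -1.01 in DU145 (SE 0.20) and from -0.61 to -0.70 in CCRF-CEM (SE 0.16), with adjusted p from 0.00541 to 0.0206. In CCRF-CEM parent cells the probe sets were divided, with 10 of 15 lower at 6 h and 8 of 15 at 12 h, and the calls of that line passed in 2 or 3 of 6 leave-outs each. They were lost without parent control 2 or 3, parent 6 h array 1 or 12 h array 3, and without knockout control 1 or 2, knockout 6 h array 1 or 3 or 12 h array 3. In DU145 parent cells at 6 h the call was lost without treated array 1 or 3.

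**Figure D4:**
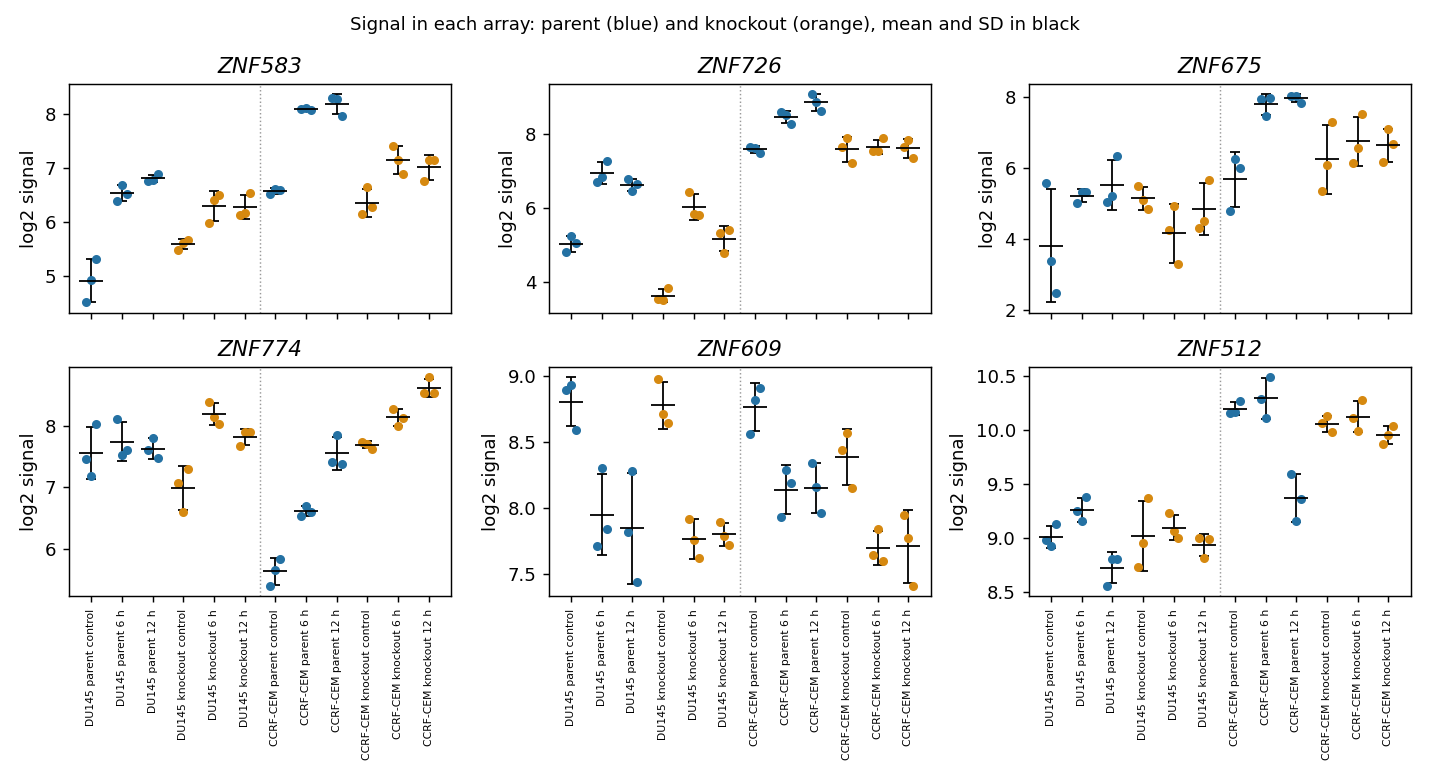
Log2 signal in each of the 36 arrays for 6 genes, with parent cells in blue and knockout cells in orange, the black bar and whiskers giving mean and SD of 3 arrays. Each gene is drawn by its brightest probe set. ZNF583 rises and ZNF609 falls in all 4 kinds of cells, ZNF774 climbs in CCRF-CEM parent cells, by a step from 6 h to 12 h of 0.93 that was 0.09 with the mean of its probe sets, and ZNF512 drops there at 12 h.

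Among the 33 genes that rose in DU145 parent cells at 6 h, 24 (72.7%) also rose in CCRF-CEM parent cells, which is 37.5% of the 64 there; over all genes the shares were 39.6% and 30.5%. At 12 h the lines shared 14, 70% of the 20 in DU145 and 20.9% of the 67 in CCRF-CEM, against 35.6% and 14.2% over all genes. Parent and knockout cells of DU145 shared 10 at 6 h, 30.3% of 33 and 47.6% of 21, against 27.7% and 29.5%. At 12 h they shared 3, 15% of 20 and 27.3% of 11, against 31.2% and 18.8%. In CCRF-CEM parent and knockout cells shared 8 at 6 h, 12.5% of 64 and 66.7% of 12, against 16.5% and 34.6%. At 12 h they shared 12, 17.9% of 67 and 75% of 16, against 20.8% and 36.6%. In CCRF-CEM parent cells 31.5% of the 203 genes rose at 6 h and 33% at 12 h, against 7.36% and 9.51% of all genes. A larger shared percentage with these cells therefore does not by itself mean more sharing. No test of these overlaps was made.

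The change differed between the parent cells of the lines for 7 members at 6 h, against 5.28% of all genes, and for 13 at 12 h, against 10.5%, so the shares of 3.45% and 6.4% were below those of all genes. ZNF503 differed at both times, by 1.49 ± 0.30 (adjusted p = 0.00308) and 1.29 ± 0.30 (adjusted p = 0.00431), since it fell in CCRF-CEM while its DU145 changes were 0.52 ± 0.22 and 0.23 ± 0.22. ZNF774 differed by -1.84 ± 0.27 at 12 h (adjusted p = 2.61e-05), with a DU145 change of 0.07 ± 0.22. Neither gene's difference passed with the mean of the probe sets, at 0.34 and 0.26 for ZNF503 (adjusted p = 0.213 and 0.341) and -0.31 for ZNF774 (adjusted p = 0.298). ZNF776 was at 7.83, 7.65 and 8.07 in CCRF-CEM parent controls and 8.58, 8.54 and 8.69 at 6 h, and in DU145 at 6.28, 6.10 and 6.39 and then 5.61, 6.36 and 6.31, a difference of -0.92 ± 0.25 (adjusted p = 0.0262). ZNF638 differed by -0.63 ± 0.14 at 6 h (adjusted p = 0.00647). The count of 7 became 3 without DU145 control 3, DU145 treated 3 or CCRF-CEM control 1, 4 without CCRF-CEM control 2, and 2 without CCRF-CEM treated 3. With equal housekeeping medians 43 differed at 12 h, of which 1 was positive, 2.33% against 23.1% here. That scaling moved all genes alike, to a median of -0.30, so it could not change the members' median minus that of all genes, -0.14.

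**Figure D5:**
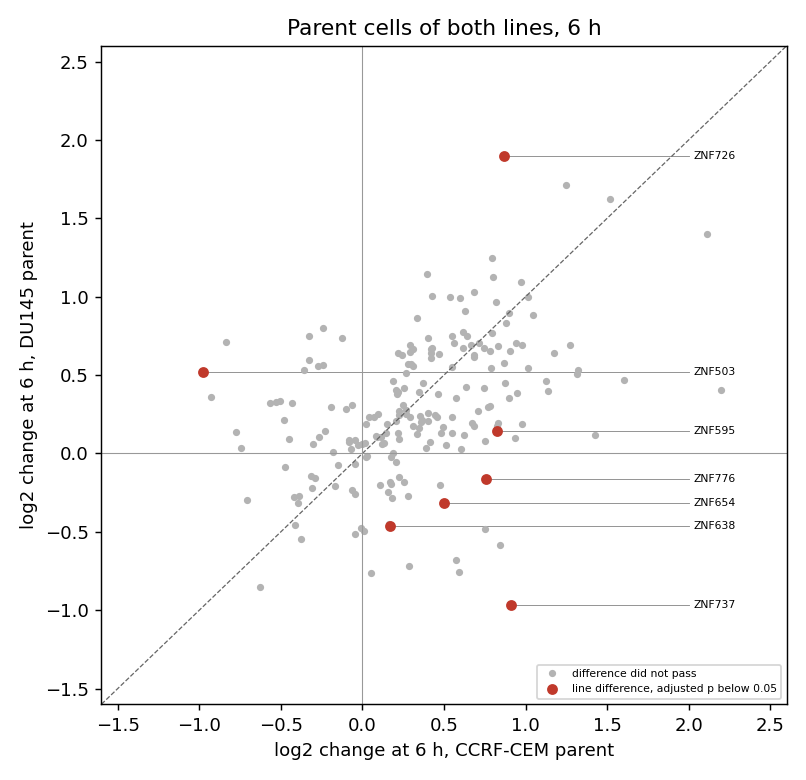
Log2 change at 6 h of the 203 genes in CCRF-CEM parent cells (horizontal) and DU145 parent cells (vertical), with the 7 genes whose change differed between the lines in red and named. ZNF503 and ZNF726 lie above the dashed line of equal change and the other 5 below it.

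Between 6 h and 12 h few members changed. In DU145 parent cells 0 of the 203 genes differed in limma (30 at an unadjusted p below 0.05), against 0.454% of all genes, and in DU145 knockout cells ZNF549 alone did, by -0.80 ± 0.14 (adjusted p = 0.0306, in 1 of 6 leave-outs), against 0.386%. CCRF-CEM knockout cells had 0 (23 unadjusted), against 0.517%. CCRF-CEM parent cells had 7 (3.45%), against 5.78%: ZNF774 and ZNF765 higher at 12 h, and ZNF512, ZNF566, ZNF639, ZNF749 and ZNF557 lower. This count was 3 without the 6 h array 2 or the 12 h array 2 and 2 without the 6 h array 3 or the 12 h array 1 or 3, and the steps of ZNF774 and ZNF512 passed in all 6 leave-outs, of which that of ZNF512 also passed with the mean of the probe sets and that of ZNF774 did not. With equal housekeeping medians 3 were higher and 1 lower.

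Of the 168 genes with a matched promoter 92 lie on chromosome 19. In CCRF-CEM parent cells 37.0% of these rose at either time, against 28.9% and 32.9% of the 76 on other chromosomes, and in DU145 parent cells 16.3% and 14.1% rose, against 19.7% and 7.9%. Over the 8 comparisons a single call of a chromosome 19 gene, in DU145 parent cells at 12 h, was a decrease. Some neighbours rose together. Among the measured protein-coding genes in RefSeq order, ZNF724, ZNF91, ZNF675, ZNF681, RPSA2, ZNF726 and ZNF254 follow each other. Their changes in CCRF-CEM parent cells at 12 h were 1.09, 0.38, 2.28, 1.19, 0.08, 1.26 and 0.55. In knockout cells at 12 h they were 0.29, -0.13, 0.40, 0.00, 0.16, 0.03 and 0.27. Around ZNF773 the genes ZNF772, ZNF419, ZNF773, ZNF549, ZNF550, ZNF416 and ZIK1 changed by 0.79, 1.05, 1.28, 0.71, 0.88, 1.14 and 1.17 in CCRF-CEM parent cells at 6 h and by 0.18, 0.14, 0.39, 0.11, 0.44, 0.12 and 0.37 in the knockout. Both runs were picked after their values were seen. In CCRF-CEM parent cells at 12 h ZNF730, before ZNF724, was at 0.65, and UQCRFS1 and VSTM2B, after ZNF254, at -0.12 and -0.06. VN1R1, before ZNF772, was at -0.05 at 6 h in these cells. Not every neighbour followed: beside ZNF583, at 1.61 in CCRF-CEM parent cells at 12 h, ZNF582 was at 0.15, ZNF667 at 0.74 and ZNF471 at 1.00. Shared probe sequence among such relatives was not tested.

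Genes listed for the KRAB corepressor complex and for related chromatin silencing moved in both directions. The list was not limited to proteins that KRAB domains recruit. Of 20 listed corepressor genes, all measured, 5 (25%) rose and 3 (15%) fell in CCRF-CEM parent cells at 12 h, against 9.51% and 7.3% of all genes, with counts of 0 and 1 at 6 h against 7.36% and 5.06%. MPHOSPH8, a subunit of the HUSH silencing complex, rose by 0.74 ± 0.13 at 12 h and ATF7IP, which stabilises SETDB1, by 0.56 ± 0.08, while DNMT3B, a DNA methyltransferase, fell by 0.63 ± 0.11. TRIM28 itself changed by 0.05 ± 0.14 at 6 h and 0.17 ± 0.14 at 12 h in these cells and did not pass. In DU145 parent cells 0 rose and 3 fell at 6 h, against 5.67% and 4.42%, and at 12 h the counts were 1 and 1, against 3.8% and 3.89%, with ATF7IP lower by 0.47 ± 0.11 at 6 h (log2 change -0.47, adjusted p = 0.016). In DU145 knockout cells 2 rose at 6 h (5.32% of all genes) and 3 at 12 h (6.31%), TRIM28 among the latter by 0.45 ± 0.11 (adjusted p = 0.0146). In CCRF-CEM knockout cells 0 passed at 6 h, and 3 did at 12 h, of which 1 fell, against 5.4% higher and 2.81% lower over all genes. With 20 genes a single call is 5%.

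Many calls rest on the brightest probe set, while few directions do. Averaged over each gene's probe sets, 61 of the 127 named values kept their call, 63 lost it and 3 reversed. With all arrays in 1 fit 31 of them lost it. In CCRF-CEM parent cells the median change over all probe sets of a gene had the direction of the brightest for 66 of the 67 genes that passed at 6 h and 71 of 72 at 12 h. In DU145 parent cells it did so for 35 of 36 and 23 of 23, in DU145 knockout cells for 24 of 24 and 12 of 13, and in CCRF-CEM knockout cells for 14 of 14 and 15 of 18.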

How the data were processed

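Total RNA of 36 samples was measured on Affymetrix whole-transcript arrays, after labelling by GeneChip WT Plus, per the labels' protocols. Per the submitters' processing notes the deposited log2 values were made by the authors with RMA and Partek, without versions. No genome build is named in the sources used here. The deposited log2 signals ran from 0.97 to 13.92 with array medians of 4.78 to 4.86 and were used without further scaling. Of 352859 probe sets, 259224 carried exactly 1 gene symbol, and 13116 with several and 80519 with none were left out. Of 22320 symbols 20529 were current, 1726 were updated by synonym and 65 kept, and 0 columns belonged to other samples. The number of arrays, 3 a group, limits the precision.

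Each line was fitted in limma 3.58.1 (lmFit and eBayes without trend, R 4.3.3) on 18 arrays (6 groups, leaving 12 degrees of freedom for the residual) and with no block for replicates, and the difference between lines in a fit of all 36 arrays in 12 groups. Benjamini-Hochberg adjustment ran over all 22260 genes, and SE is limma's moderated standard error. Python 3.11.15 served for the summaries. The genes described, the corepressor list and the tests were chosen with earlier results of these data known. Named are the 6 genes with the largest changes per direction among those that passed (4 for 12 h against 6 h), for camptothecin only where treated and control arrays did not overlap, the 5 brightest and those moving alike in all 4 kinds of cells; others serve as examples and were picked after their values were seen. Tried besides were the replicate number as a block, all arrays in 1 fit, trend with robust moderation, a group mean of at least 5, equal medians of 16 of 18 listed housekeeping genes, cyclic loess, averaging the probe sets of a gene and leaving out each array. The fit was tested on simulated data first.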

Additional observations from a re-analysis of the deposited data

Results flagged for a closer look

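These values differed by a test of the difference itself, limma with Benjamini-Hochberg adjustment over all 22260 genes. Differences between genotypes are the parent minus the knockout change, on the log2 scale. In CCRF-CEM at 12 h they were 1.23 for ZNF726, 1.22 for ZNF641, 1.22 for ZNF615, 1.19 for ZNF681, 1.19 for ZNF687, 1.09 for ZNF547, -1.20 for ZNF700 and -0.72 for ZNF512. In CCRF-CEM at 6 h they were 1.32 for ZNF670, 0.90 for ZNF595, 0.88 for ZNF773, 0.77 for ZNF776, 0.74 for ZNF501 and 0.72 for ZNF649. In DU145 at 12 h they were 1.21 for ZNF583, 1.15 for ZNF783, 1.13 for ZNF549 and -1.50 for ZNF599, and none of these 4 passed in all 12 leave-outs. Nor did several of those in CCRF-CEM. Of their 12 leave-outs ZNF773 passed in 0, ZNF615 and ZNF501 in 1, ZNF547, ZNF776 and ZNF649 in 2, and ZNF512 and ZNF670 in 8.

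Differences between the lines are the DU145 minus the CCRF-CEM change of parent cells. At 6 h they were 1.49 for ZNF503, 1.03 for ZNF726, -1.88 for ZNF737, -0.92 for ZNF776, -0.82 for ZNF654, -0.68 for ZNF595 and -0.63 for ZNF638. At 12 h they were 1.29 for ZNF503, 0.98 for ZNF749, 0.51 for ZNF706, -1.84 for ZNF774, -1.38 for ZNF547, -1.35 for ZNF555, -1.05 for ZNF776, -0.89 for ZNF773 and -0.85 for ZNF641. ZNF737 was dim in DU145, at 4.14, 3.79 and 3.19 in the controls and 3.01, 2.52 and 2.69 at 6 h, and its difference passed in 2 of 12 leave-outs. At 6 h the differences of ZNF726 and ZNF595 passed in 6 of 12, and those of ZNF776 and ZNF654 in 7. At 12 h those of ZNF706 and ZNF547 passed in 4 of 12, that of ZNF749 in 7 and that of ZNF641 in 10. With the mean of all probe sets the differences between lines of ZNF503, ZNF726, ZNF737, ZNF595, ZNF706, ZNF774, ZNF547, ZNF555 and ZNF641 no longer passed, nor did the genotype differences in CCRF-CEM of ZNF726, ZNF641, ZNF547, ZNF700, ZNF670, ZNF595 and ZNF501 and the 4 in DU145. What lies behind these differences was not tested.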

How the results depend on the processing

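Counts are members that passed. With the mean of all probe sets they became, in DU145, 64 (parent 6 h), 45 (parent 12 h), 21 (knockout 12 h), 1 and 6 (12 h against 6 h, parent and knockout) and 5 (genotype 6 h). In CCRF-CEM they became 23 (knockout 6 h), 2 (knockout 12 h against 6 h), 18 and 32 (genotype 6 h and 12 h) and 8 (untreated), and between lines 19 and 34. The same setting reversed ZNF546 (-0.001) and ZNF726 (0.076) in untreated DU145 and ZNF503 (0.078) in CCRF-CEM parent cells at 6 h. Equal housekeeping medians gave 15 in DU145 parent cells at 12 h, 0 for knockout 12 h against 6 h, and 8 and 9 for the genotype difference. They gave 4 for CCRF-CEM parent 12 h against 6 h, 4 and 6 for the knockout, and 43 between lines at 12 h. Cyclic loess gave 13 and 8 for DU145 parent and knockout cells at 12 h. One fit of all arrays gave, in DU145, 2 and 3 for 12 h against 6 h, 23 for knockout 12 h, 7 for genotype 6 h and 31 untreated, and 2 between lines at 6 h. Trend with robust moderation gave 0 for DU145 knockout 12 h against 6 h, and the filter on a group mean of 5 gave 1 for DU145 genotype 6 h. The cause was not tested.

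Same-numbered arrays of different groups were correlated on their deviations from the group means. These correlations ran from -0.173 to 0.0926 in DU145 and -0.0494 to 0.159 in CCRF-CEM. Their medians were -0.0126 and 0.0169, against 0.00354 and -0.0101 for arrays with different numbers. The highest value with different numbers was 0.192 in DU145, above the same-numbered ones, and 0.0845 in CCRF-CEM, below the highest of them. Whether the replicate numbers pair the samples was not tested. The replicate block gave 1 for DU145 genotype 6 h, 34, 20, 25 and 12 for DU145 parent and knockout cells at 6 h and 12 h, and 68, 73, 14 and 23 for CCRF-CEM.

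Leave-outs ranged in DU145 from 24 to 33 and 12 to 16 (parent), 15 to 22 and 7 to 10 (knockout), 0 to 1 and 0 to 1 (12 h against 6 h), 0 to 2 and 0 to 2 (genotype) and 12 to 18 (untreated). In CCRF-CEM they ranged from 53 to 62 and 56 to 66 (parent), 6 to 8 and 9 to 15 (knockout), 2 to 5 and 0 to 0 (12 h against 6 h), 1 to 6 and 14 to 20 (genotype) and 1 to 2 (untreated), and between lines from 2 to 9 and 10 to 16. Of 127 named values 62 passed in all their leave-outs and 41 under all other alternatives.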
